A study of Homo sapiens with 2 samples.

Results

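The genes described here are 9 genes of brush border adhesion and structure together with the intestinal cadherin gene CDH17, out of 29972 human genes in the table. They are CDH17, CDHR2, CDHR5, USH1C, ANKS4B, MYO7B, MYO1A, VIL1 and EPS8, taken by symbol, and each matched 1 row. The list was selected on measured values of the same 2 libraries, so the differences between the libraries given for these genes are a description and carry no test. The study compared RNA from a T-DM1-refractory tumour, whose nude mouse host had received trastuzumab emtansine (T-DM1) every 3 weeks over 18 weeks, with RNA from an untreated tumour. T-DM1 is an antibody against HER2 that carries the microtubule poison DM1, and both tumours grew under the skin from NCI-N87, a human gastric carcinoma line with amplified HER2 (ERBB2). There was 1 library per group, and a single tumour of a single line limits what either group stands for. Tumour size, age and passage were not given in the sources used here.

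A brush border is the dense array of microvilli on the apical face of intestinal absorptive cells, and gastric surface cells normally carry only a sparse one. Its microvilli are cores of bundled actin, and their tips are held together by the intermicrovillar adhesion complex, in which the protocadherins CDHR2 and CDHR5 reach between neighbouring microvilli and the scaffolds USH1C and ANKS4B and the motor MYO7B hold them from inside the cell. CDH17, the liver-intestine cadherin, sits on the lateral membrane, joins neighbouring epithelial cells without binding catenins, and is known to appear in intestinal metaplasia of the stomach.

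Start windows from RefSeq were used for 5 of the 9 genes, and the 250 bases before the start nearest upstream of the coding region are shown. These genes include 4 that differed widely between the tumours and 1, USH1C, that did not. The letters come from RefSeq on GRCh38.p14 and run 5′ to 3′ on the gene's strand. Capitals mark the letters CAAAGTC, its 9-letter form CAAAGTCCA (motifs bound by HNF4 factors) or GTTAAT (a core of HNF1 sites) on either strand. Gene-level counts do not tell which start a gene used. CDHR2, MYO7B, MYO1A and USH1C each had 2 start windows and ANKS4B had 1, and for each gene only the window of the start shown was searched. That start lay 16011 bases from the coding start in CDHR2, 24040 in MYO7B, 1806 in MYO1A, 109 in USH1C and 39 in ANKS4B. No window was used for CDH17, CDHR5, VIL1 and EPS8. The windows are chr5:176549092-176549341 on the plus strand for CDHR2, chr16:21233449-21233698 on the plus strand for ANKS4B, chr2:127535433-127535682 on the plus strand for MYO7B, chr12:57050130-57050379 on the minus strand for MYO1A and chr11:17544417-17544666 on the minus strand for USH1C.
CDHR2: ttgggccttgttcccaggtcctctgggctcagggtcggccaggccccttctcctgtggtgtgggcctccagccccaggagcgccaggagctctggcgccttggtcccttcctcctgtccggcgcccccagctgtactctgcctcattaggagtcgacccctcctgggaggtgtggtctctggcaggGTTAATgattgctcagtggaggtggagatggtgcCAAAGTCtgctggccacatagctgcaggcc
ANKS4B: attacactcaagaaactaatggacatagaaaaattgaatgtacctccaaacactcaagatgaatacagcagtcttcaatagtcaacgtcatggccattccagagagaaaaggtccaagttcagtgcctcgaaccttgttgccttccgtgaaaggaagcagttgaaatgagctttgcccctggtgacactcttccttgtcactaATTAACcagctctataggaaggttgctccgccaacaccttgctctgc
MYO7B: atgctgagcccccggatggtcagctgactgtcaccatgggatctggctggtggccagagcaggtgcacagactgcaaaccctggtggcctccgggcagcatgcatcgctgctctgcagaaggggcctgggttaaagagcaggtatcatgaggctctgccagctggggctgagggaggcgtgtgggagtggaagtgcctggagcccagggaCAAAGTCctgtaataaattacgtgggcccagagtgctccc
MYO1A: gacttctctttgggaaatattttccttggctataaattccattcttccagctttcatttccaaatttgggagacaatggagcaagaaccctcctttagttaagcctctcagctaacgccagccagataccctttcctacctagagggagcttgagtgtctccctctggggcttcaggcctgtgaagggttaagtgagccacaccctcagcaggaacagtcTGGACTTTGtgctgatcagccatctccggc
USH1C: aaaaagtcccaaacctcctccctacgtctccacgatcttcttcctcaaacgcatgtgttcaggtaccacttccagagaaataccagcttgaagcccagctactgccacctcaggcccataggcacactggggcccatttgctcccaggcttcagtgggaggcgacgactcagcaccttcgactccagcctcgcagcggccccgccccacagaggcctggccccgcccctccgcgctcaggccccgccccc

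The HNF4 letters lay in 3 of the 5 windows and the HNF1 letters in 2. Each window of 250 bases before a start and 50 after it was searched on both strands, and CAAAGTC was found in 3.37% of 34943 such windows in the RefSeq table. In CDHR2 the HNF1 letters began 64 bases and the HNF4 letters 30 bases before the start. In MYO7B the HNF4 letters began 40 bases before the start. In MYO1A the 9-letter form CAAAGTCCA, which contains CAAAGTC and occurred in 0.383% of all windows, began 30 bases before the start on the opposite strand. ANKS4B held GTTAAT, present in 6.90% of all windows, on the opposite strand 47 bases before its start. None of the 5 windows held TTTATG, a core of CDX sites found in 10.6% of all windows, or AGATAA, which factors of the GATA family bind and which was found in 10.4%. CDH17, CDHR5, VIL1 and EPS8 had no window among the 5, so neither the matches nor the absence of CDX and GATA letters covers those genes. The motifs were chosen after the sequences and the expression values had been seen, and a match of letters is not a bound site.

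**Figure D1:**
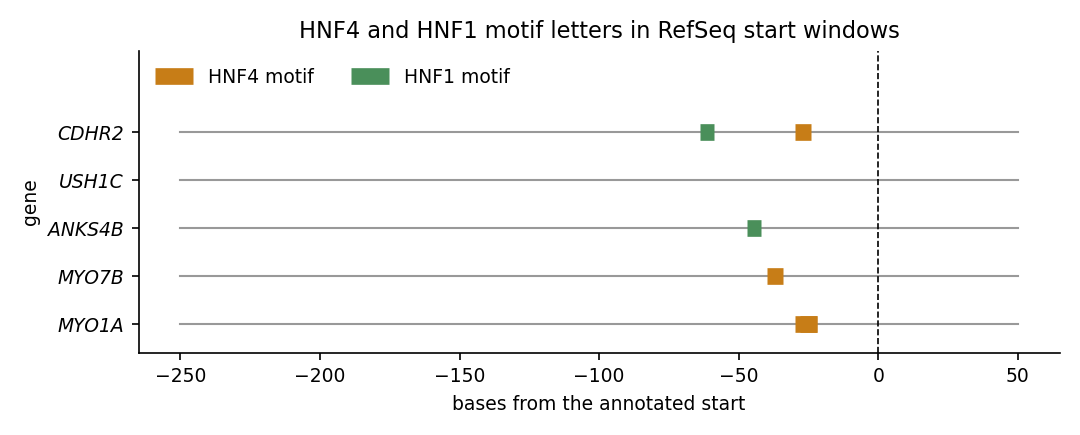
Positions of motif letters in the RefSeq start windows of 5 genes, in bases from the annotated start (dashed line), with HNF4 letters in orange and HNF1 letters in green. The matches in CDHR2, ANKS4B, MYO7B and MYO1A all lie within 64 bases before the start, and the USH1C window has none. For each gene only the window shown was searched, also where the gene had 2.

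The library of the refractory tumour held 59902712 rounded expected counts and that of the untreated tumour 75722114. The label of a HER2-amplified epithelial line was matched by high EPCAM and KRT19 and by ERBB2, which stood at 7975 CPM in the refractory and 7267 CPM in the untreated tumour, where CPM is a count relative to the scaled library size. Several gastric markers were scarce in both: TFF2 stood at or under 3 counts, CLDN18 under 1 CPM, and GKN1 and GKN2 at 0. Other gastric markers under 1 CPM in both went both ways. TFF1 had 42 counts in the refractory and 0 in the untreated tumour and PGC 16 and 0, while MUC6 had 22 and 65 and LIPF 0 and 7. TFF1, PGC, MUC6 and LIPF were named after their values were seen. A gene was described when its higher library reached 1 CPM, which 14167 genes and all 9 members did. Called means a difference of at least 2-fold on the log2(CPM + 1) scale, which understates the change of low genes. Ratios are of CPM, refractory over untreated, with exact 95% Poisson intervals that cover counting error only. Floors for a count of 0 are 3 counts, equal to 0.0506 CPM in the refractory and 0.0392 CPM in the untreated library. In such bulk libraries, fewer cells of a type and less RNA per cell cannot be told apart.

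Of the 9 genes, 8 were called higher in the refractory tumour, 0 lower, and USH1C was between. Of all described genes 9.80% were called higher and 11.0% lower, but the members were chosen on this contrast, so nothing is read from the difference in shares. The median log2 difference of the 9 was 4.21, against 0.03 over all described genes. Only 4 of the 9 reached 1 CPM in the untreated tumour. The other five, CDHR2, CDHR5, ANKS4B, MYO7B and MYO1A, were described only through their level in the refractory tumour, so their being called higher followed in part from the filter. In the table deposited by the authors, a total of 7 of the 9 had a p-value under 0.05 and a higher level in the refractory tumour. Over all 29972 genes, described or not, that share was 2.37%. Nothing is read from this difference either, because the members were chosen on the same 2 libraries. That p sets 1 library against 1, and EPS8 (p = 0.0790) and USH1C (p = 0.826) were the exceptions in the authors' deposited table.

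**Figure D2:**
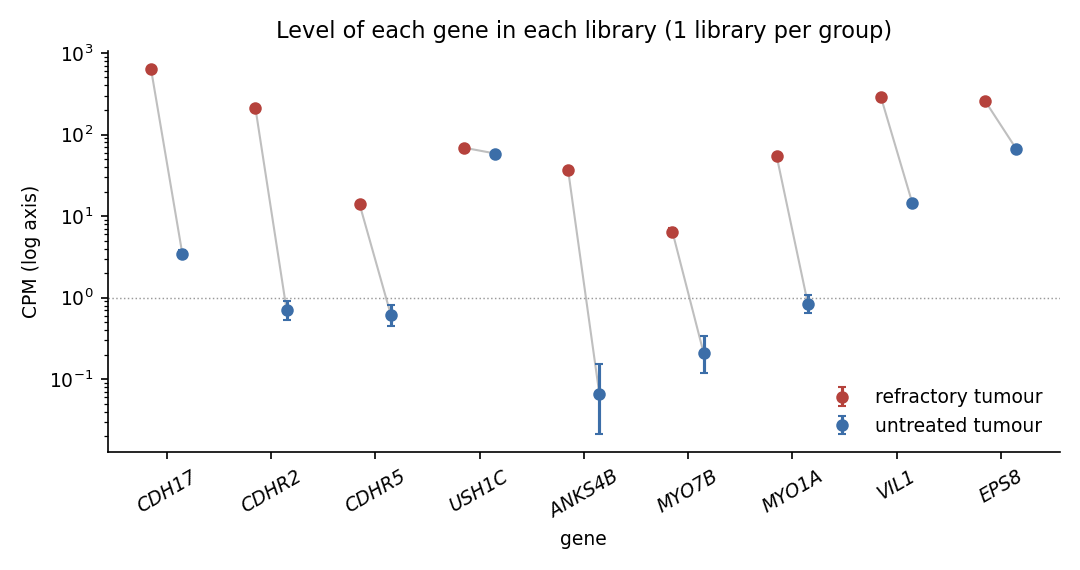
CPM of each gene (log axis) in the refractory (red, left of each pair) and untreated (blue, right) tumour, 1 library each, with exact 95% Poisson intervals as bars and a dotted line at 1 CPM. USH1C is nearly level, EPS8 differs by less than 4-fold, and the other seven lie at least 19-fold apart.

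The adhesion molecules of the brush border, CDHR2 and CDHR5, were under 1 CPM in the untreated tumour. CDHR2 (chr5:176565353-176595672, coding start to end), the protocadherin at microvillus tips, had 12692 counts (214 CPM) in the refractory and 54 counts (0.706 CPM) in the untreated tumour. This is a ratio of 303 (95% interval 232 to 403), rank 6 of 14167 described genes by log2 difference. Its binding partner across the gap, CDHR5 (chr11:617351-624902), had 826 counts (13.9 CPM) in the refractory and 47 counts (0.615 CPM) in the untreated tumour, a ratio of 22.6 (95% interval 16.9 to 31.1). Both partners were thus low together in the untreated tumour, while CDHR2 was far ahead of CDHR5 in the refractory one. Compared per length, in FPKM, CDHR2 was 10.9 times CDHR5 in the refractory and 0.788 times CDHR5 in the untreated tumour.

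The scaffolds and the motor under these links did not share one pattern. USH1C (chr11:17494364-17544307), whose product harmonin binds the tails of both protocadherins, had 4092 counts (69.0 CPM) in the refractory and 4474 counts (58.5 CPM) in the untreated tumour, a ratio of 1.18 (95% interval 1.13 to 1.23). ANKS4B (chr16:21233738-21250820), the ankyrin-repeat scaffold that links harmonin to the motor, had 2160 counts (36.4 CPM) in the refractory and 5 counts (0.0654 CPM) in the untreated tumour. Its ratio of 557 was the highest of the 9 and the least exact (95% interval 238 to 1716), because it rests on those 5 counts. MYO7B (chr2:127559723-127637417), the myosin that carries the complex to the tips, had 383 counts (6.46 CPM) in the refractory and 16 counts (0.209 CPM) in the untreated tumour, a ratio of 30.8 (95% interval 18.8 to 54.5). On the scale of log2(FPKM + 1) MYO7B differed by only 0.94 and was not called, since its FPKM was 0.978 in the refractory and 0.0328 in the untreated tumour.

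USH1C was therefore the most abundant of the complex per length in the untreated tumour, where CDHR2, CDHR5, ANKS4B and MYO7B were each below 0.3 FPKM. It exceeded ANKS4B by 1176 times in FPKM there, against 2.54 times in the refractory tumour. Over MYO7B, the USH1C excess in FPKM was 35.8 times in the refractory and 901 times in the untreated tumour. CALML4, a calmodulin-like light chain of MYO7B in the same complex, stood at 123 CPM in the refractory and 69.3 CPM in the untreated tumour (log2 0.82), and was not called.

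The genes of the actin core also differed in degree. VIL1 (chr2:218423779-218449336), which encodes the actin bundler villin, had 17053 counts (287 CPM) in the refractory and 1118 counts (14.6 CPM) in the untreated tumour, a ratio of 19.7 (95% interval 18.5 to 20.9). MYO1A (chr12:57028755-57048323), the brush border myosin that tethers the membrane to the core, had 3217 counts (54.2 CPM) in the refractory and 64 counts (0.837 CPM) in the untreated tumour, a ratio of 64.8 (95% interval 50.6 to 84.3). EPS8 (chr12:15621317-15682951), a capper and bundler of actin at the tip, had 15228 counts (257 CPM) in the refractory and 5049 counts (66.0 CPM) in the untreated tumour. Its ratio of 3.89 (95% interval 3.76 to 4.01) was the lowest of the 8 called genes. The tissue-restricted core genes VIL1 and MYO1A thus differed more than EPS8, which many epithelia express.

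CDH17 (chr8:94128240-94194685) was the most abundant of the 9 in the refractory tumour. It had 37295 counts (629 CPM) in the refractory and 263 counts (3.44 CPM) in the untreated tumour, a ratio of 183 (95% interval 162 to 207) and rank 5 of all described genes by log2 difference. Per length it stood level with CDH1, the E-cadherin of all epithelia, in the refractory tumour, at 1.02 times its FPKM, against 0.00775 times in the untreated tumour. CDH1 itself was not called, at 817 CPM in the refractory and 589 CPM in the untreated tumour.

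The order of the genes by per-length level differed between the tumours. In the refractory tumour CDH17 led with 183 FPKM, followed by VIL1 (116), EPS8 (72.7), CDHR2 (55.4), USH1C (35.0), MYO1A (16.1), ANKS4B (13.8), CDHR5 (5.09) and MYO7B (0.978). In the untreated tumour USH1C led with 29.6 FPKM, followed by EPS8 (19.0), VIL1 (6.01), CDH17 (1.02), MYO1A (0.253), CDHR5 (0.236), CDHR2 (0.186), MYO7B (0.0328) and ANKS4B (0.0251). The highest of the 9 exceeded the lowest 187 times in the refractory tumour, against 1176 times in the untreated one. Among all described genes by FPKM, CDH17 lay at percentile 97.4 in the refractory and 11.4 in the untreated tumour, whereas USH1C lay at percentile 81.5 in the refractory and 78.9 in the untreated tumour. The transcript length implied by counts and FPKM differed little for any of the 9, with refractory-to-untreated ratios of 0.976 for USH1C to 1.03 for CDHR5, so the FPKM of each gene gave nearly the same ratio as its counts. Neighbours in these orders are single values, and with 1 library their spread is unknown.

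Of the inner-ear relatives of the complex, CDH23, PCDH15, USH1G and MYO7A were each under 1 FPKM in both tumours. Hair cells build the links of their stereocilia from related parts, CDH23 and PCDH15 in place of the protocadherins, USH1G in place of ANKS4B and MYO7A in place of MYO7B, around the same scaffold USH1C. PCDH15 had 0 counts in both tumours, USH1G 2 counts in each, and CDH23 5 counts in the refractory and 27 counts in the untreated tumour. MYO7A had 178 counts in the refractory and 397 counts in the untreated tumour. Per length, MYO7B was at 0.978 FPKM and MYO7A at 0.422 FPKM in the refractory tumour, against 0.0328 FPKM for MYO7B and 0.742 FPKM for MYO7A in the untreated one, so MYO7B was the higher of the pair in the refractory tumour and MYO7A in the untreated one. CIB2, another stereocilia gene, was not called, at 2.08 FPKM in the refractory and 3.03 FPKM in the untreated tumour. That was above MYO7B in both tumours, and above CDHR2, CDHR5 and ANKS4B in the untreated one. CIB2 was named after its values were seen. In the wider list of 16 stereocilia genes 7 were described, 0 were higher and 1 was lower (median log2 -0.31). Over all described genes 9.80% were higher and 11.0% lower. The lower one was the myosin gene MYO3B. It stood at 0.169 CPM in the refractory and 12.4 CPM in the untreated tumour, 73.6-fold lower (95% interval 39.9 to 154).

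**Figure D3:**
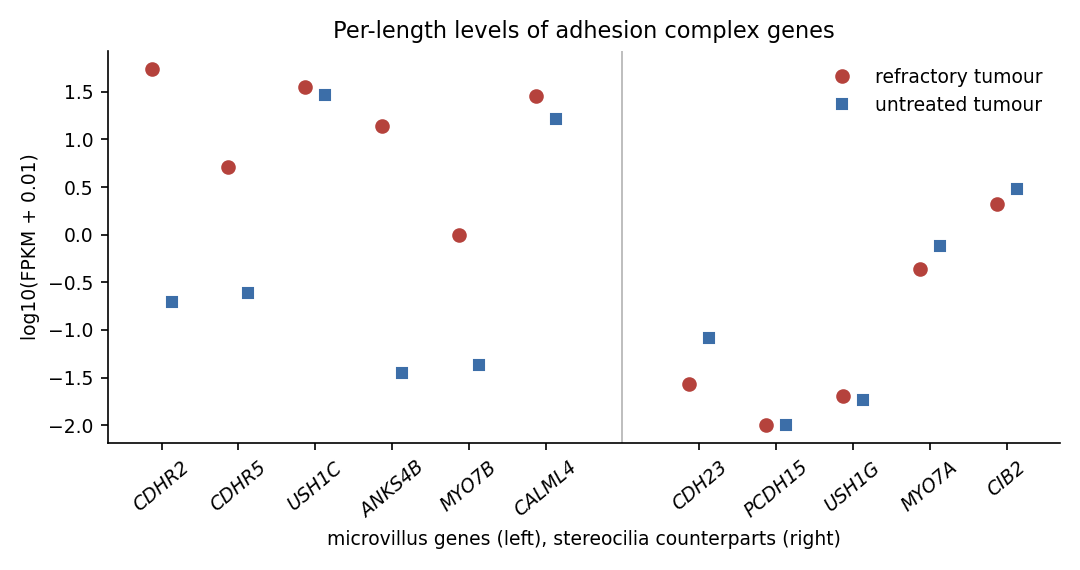
Per-length levels, as log10(FPKM + 0.01), of genes of the intermicrovillar adhesion complex (left) and of stereocilia genes (right) in the refractory (red circles) and untreated (blue squares) tumour, 1 library each. USH1C and CALML4 lie high in both tumours, and CDHR2, CDHR5, ANKS4B and MYO7B stand apart. PCDH15 lies at 0 FPKM in both, and CIB2 is the highest of the stereocilia genes plotted in both.

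Most other structural genes of the microvillus were not called, and more of the called ones were higher than lower. Of 30 listed genes of the core, membrane and terminal web 29 were described, with 5 higher, 1 lower and 23 between, and a median log2 of 0.22. Of all 14167 described genes 1388 were higher, 1555 lower and 11224 between. EPS8L3, a relative of EPS8, stood at 69.6 CPM in the refractory and 9.90 CPM in the untreated tumour (ratio 7.03, 95% interval 6.50 to 7.61). Its other relatives went the other way without being called, EPS8L1 at 50.2 CPM in the refractory and 86.0 CPM in the untreated tumour, and EPS8L2 at 66.4 CPM in the refractory and 82.6 CPM in the untreated tumour. PLS1, the fimbrin of intestinal microvilli, stood at 527 CPM in the refractory and 115 CPM in the untreated tumour (ratio 4.57, 95% interval 4.47 to 4.68). SCIN, an actin-severing relative of villin, stood at 5.14 CPM in the refractory and 0.719 CPM in the untreated tumour. EZR, which encodes ezrin, the membrane linker of microvilli, stood at 1233 CPM in the refractory and 769.7 CPM in the untreated tumour and was not called. EZR and CALML4 were named after their values were seen.

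Genes that place microvilli on the apical face and carry membrane to it included 3 that were called. Of 12 genes of the apical kinase and RAP2A module, 0 were higher and 2 lower (median log2 -0.13), beside 1388 higher and 1555 lower of all 14167 described genes. STK26, listed under its older symbol MST4 and encoding the kinase that phosphorylates ezrin, stood at 30.4 CPM in the refractory and 118 CPM in the untreated tumour, 3.89-fold lower (95% interval 3.69 to 4.09), and RAP2A was 2.12-fold lower. Of 10 genes of apical membrane traffic 1 was higher and 0 lower (median log2 0.04), namely the apical syntaxin gene STX3, at 214 CPM in the refractory and 83.5 CPM in the untreated tumour.

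Most of the genes listed here as hydrolases, transporters and carriers of a brush border stayed under 1 CPM in both tumours. The lists also hold enzymes, such as CPVL, whose place in a brush border was not examined. Counts of 0 were found for 5 of 20 hydrolase genes in the refractory and 6 in the untreated tumour, and for 7 of 24 transporter and carrier genes in the refractory and 10 in the untreated tumour. Of 20 hydrolase genes 8 were described, 4 of them higher and 2 lower (median log2 1.35), beside 9.80% and 11.0% of all described genes. ANPEP, aminopeptidase N, stood at 9.57 CPM in the refractory and 0.445 CPM in the untreated tumour (ratio 21.5, 95% interval 15.2 to 31.4), CPVL, a carboxypeptidase, at 21.6 CPM in the refractory and 2.46 CPM in the untreated tumour, and ACE at 12.3 CPM in the refractory and 2.58 CPM in the untreated tumour. MME, which encodes neprilysin, was 4.80-fold lower. Sucrase-isomaltase, SI, had 0 counts in both tumours. Low hydrolase genes that were not called went both ways. TREH had 46 counts in the refractory and 0 in the untreated tumour, and DPP4 76 and 12. MGAM had 22 counts in the refractory and 62 in the untreated tumour, and ENPEP 0 and 9. TREH, DPP4, MGAM and ENPEP were named after their values were seen. Of 24 transporters and lipid carriers 7 were described, with 3 higher and 1 lower (median log2 0.68). NPC1L1, the intestinal cholesterol uptake protein, stood at 54.8 CPM in the refractory and 0.536 CPM in the untreated tumour (ratio 102, 95% interval 75.2 to 143), followed by the anion exchanger gene SLC26A6 (ratio 4.46) and the peptide transporter gene SLC15A1 (ratio 2.60). SLC9A2, a sodium-proton exchanger, stood at 43.6 CPM in the refractory and 345 CPM in the untreated tumour. FABP1, APOA4, APOB and SLC26A3 had 0 counts in both.

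CDH17 did not share its difference with other cadherins as a family. Of 39 other cadherin genes 18 were described, with 4 higher, 5 lower and a median log2 of -0.21. Among all described genes 9.80% were higher and 11.0% lower. CDH16, the cadherin closest to CDH17 in domain structure, had 82 counts in the refractory and 0 counts in the untreated tumour, at least 35.2-fold higher. PCDH7 stood at 145 CPM in the refractory and 6.70 CPM in the untreated tumour, and CDHR4 at 1.75 CPM in the refractory and 0.301 CPM in the untreated tumour. DCHS2, a giant cadherin, had 0 counts in the refractory and 472 in the untreated tumour, at least 122-fold lower. CDH11, a mesenchymal cadherin, was 65.2-fold lower (95% interval 25.2 to 241), and CELSR2 4.02-fold lower.

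**Figure D4:**
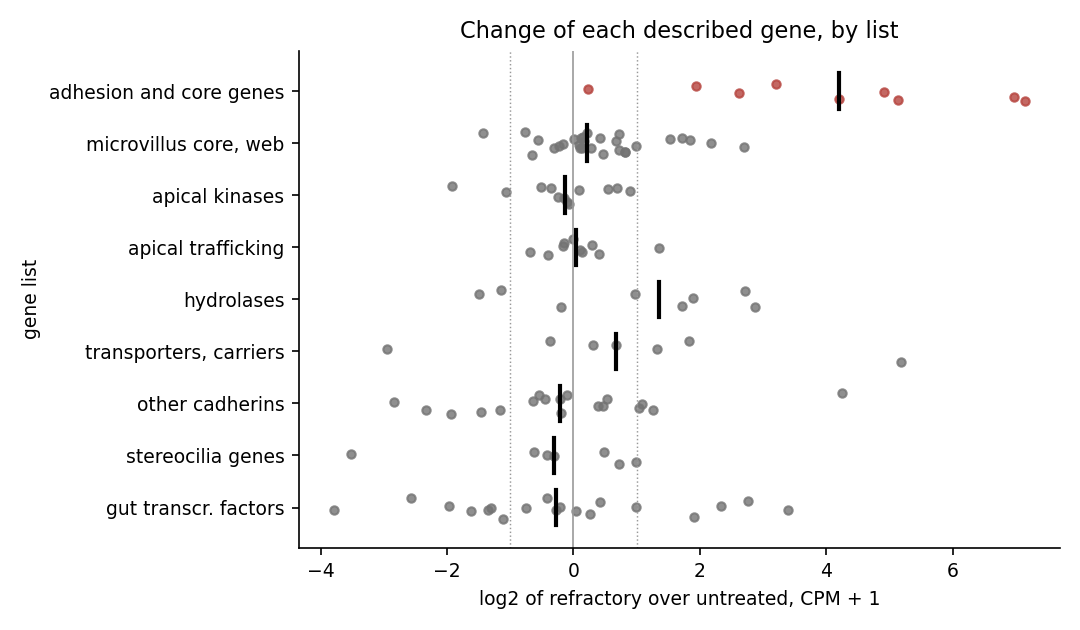
Log2 of refractory over untreated (CPM + 1) for each described gene, by list, with the 9 genes in red, other lists in grey, black ticks at list medians and dotted lines at 2-fold. The 9 genes have a median of 4.21, and the other eight lists have medians between -0.31 and 1.35.

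Gut transcription factors went both ways, with 4 of 19 described genes higher, 7 lower and a median log2 of -0.28. The shares over all described genes were 9.80% higher and 11.0% lower. HNF4G stood at 96.5 CPM in the refractory and 13.4 CPM in the untreated tumour, and FOXA3 at 14.8 CPM in the refractory and 2.13 CPM in the untreated tumour. PRDM1 (7.44-fold) and MAF (19.8-fold) were lower. CDX2, the intestinal homeobox factor, was not called, at 5.66 CPM in the refractory and 10.2 CPM in the untreated tumour, and neither was HNF4A, at 63.2 CPM in the refractory and 31.3 CPM in the untreated tumour. CDX2 and HNF4A were named after their values were seen.

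The genes around each member on its chromosome were also compared. For each gene, the 5 described genes on either side were taken in order of coding start. Their median log2 lay between -0.44 (around EPS8) and 0.66 (around CDHR2), and none of the neighbours of the 8 called genes was higher in the refractory tumour by a larger log2 difference than the member. Shares over all described genes were 9.80% higher and 11.0% lower. Around CDHR2, 4 of 10 neighbours were higher, among them GPRIN1 (73.0 CPM in the refractory and 11.2 CPM in the untreated tumour) and FGFR4 (log2 3.66). Around EPS8, 4 of 10 were lower, and of these PIK3C2G (log2 -4.63) and ERP27 (log2 -3.01) differed by more than EPS8 (log2 1.94), in the other direction. The neighbours named here were chosen after their values were seen. An exon of GPRIN1 overlaps CDHR2 on the other strand in GENCODE 29, as one of USP37 overlaps VIL1, and TAC3 overlaps MYO1A on the same strand. The use of strand in counting was not given, so reads in these overlaps cannot be told apart. TAC3 had 213 counts in the refractory and 6 counts in the untreated tumour, fewer than MYO1A in both.

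**Figure D5:**
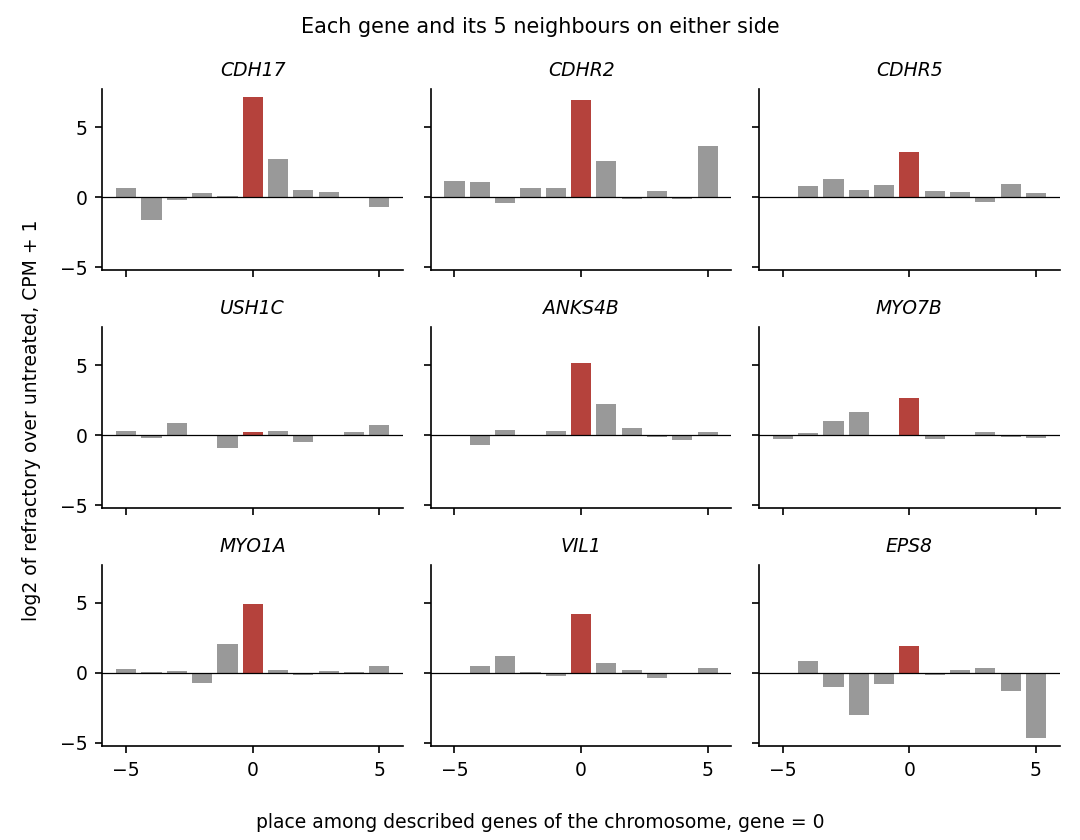
Log2 of refractory over untreated (CPM + 1) for each gene (red, place 0) and its 5 described neighbours on either side along the chromosome (grey). The red bars stand above all grey ones in 8 panels, and USH1C lies among its neighbours.

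The genes nearest to CDH17 in their pair of log2(CPM + 1) levels were EGLN3, a HIF prolyl hydroxylase, CTSE, a gastric aspartic protease, and F5, coagulation factor V, at distances of 0.74, 0.75 and 1.19. Nearest to CDHR2 were HPGD, which inactivates prostaglandins, LGALS4, an intestinal galectin, and CLDN2, a pore-forming claudin, at distances of 0.22, 0.37 and 0.52. These likenesses rest on 2 libraries.

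Markers of other cell types were summed in each library. Their counts of called genes stand beside shares of 9.80% higher and 11.0% lower over all described genes, but markers that were not described could not be called. Described were 3 of 11 enterocyte, 4 of 9 goblet, 1 of 11 gastric surface and gland and 7 of 8 squamous markers. So were 4 of 7 immune and 2 of 9 Paneth and enteroendocrine markers. Of 11 enterocyte markers, VIL1 among them, 2 were higher and 0 lower, and 8 stood under 1 CPM in the refractory and 9 in the untreated tumour. Their sum was 324 CPM in the refractory and 49.8 CPM in the untreated tumour, of which VIL1 alone held 287 CPM in the refractory and 14.6 CPM in the untreated tumour, and SI, FABP1, APOA4 and APOB were at 0 in both. Under 1 CPM in both, ALPI had 28 counts in the refractory and 2 in the untreated tumour, RBP2 15 and 0, and APOA1 8 and 0. SLC5A1 went the other way without being called, at 26.5 CPM in the refractory and 34.7 CPM in the untreated tumour. These genes were named after their values were seen. Of 9 goblet markers 3 were higher (AGR2, REG4 and SPDEF), their sum being 179.6 CPM in the refractory and 61.7 CPM in the untreated tumour, while the defining mucin gene MUC2 had 0 counts in the refractory and 5 counts in the untreated tumour. Of 11 gastric surface and gland markers 1 was higher, MUC5AC, with sums of 12.7 CPM in the refractory and 1.60 CPM in the untreated tumour. Of 8 squamous markers 6 were lower, with sums of 180.3 CPM in the refractory and 1799.5 CPM in the untreated tumour. Of 7 immune markers 3 were higher (CD68, LYZ and ITGAM), with sums of 130.1 CPM in the refractory and 31.7 CPM in the untreated tumour, and CD3E was at 0 in both. The table holds human genes and the tumours were xenografts. Human markers of immune, fibroblast and vessel cells therefore do not measure such cells of the mouse host. Of 9 Paneth and enteroendocrine markers 1 was higher, LYZ again, with sums of 96.2 CPM in the refractory and 28.4 CPM in the untreated tumour.

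The remaining lists were flat or low. Proximal tubule markers, from another tissue with a brush border, had 2 of 7 described and 0 called (sums 60.5 CPM in the refractory and 60.9 CPM in the untreated tumour). AQP1 alone held 54.1 CPM in the refractory and 55.3 CPM in the untreated tumour, and was named after its values were seen. Hepatocyte markers had 3 of 7 described and 1 lower (83.9 CPM in the refractory and 118.0 CPM in the untreated tumour). Fibroblast and vessel markers had 2 of 9 described and 0 called (2.39 CPM in the refractory and 4.49 CPM in the untreated tumour). Of the 11 markers of the line 8 were described, with 1 higher, MUC1, and 0 lower (14291 CPM in the refractory and 14693 CPM in the untreated tumour). The part of any of these shifts in the levels of the 9 genes was not tested.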

How the data were processed

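RNA of 2 xenograft tumours was measured by mRNA sequencing, with 1 library per group, and groups came from the treatment and title labels. For every gene the authors deposited an expected count (an estimate, whole for 93.2% of genes in the refractory and 92.8% in the untreated library) and an FPKM. They also deposited a log2 fold change and a p-value for 1 library against 1. The submitters' processing notes name STAR 2.7.0e, edgeR 3.26.8, RSEM 1.2.28 and bcl2fastq 2.20, and the builds GRCh38 and GRCm38, without saying what each did.

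Expected counts were rounded, and TMM factors from edgeR 4.0.16 in R 4.3.3 (0.990 for the refractory and 1.01 for the untreated library) scaled them to CPM. The rest used Python 3.11.15 and scipy 1.17.1, and the calculation was tested on simulated data. No test across samples was possible. Coding starts, deposited counting from 0, are printed counting from 1, and matched GENCODE 29 on GRCh38. The 9 members and all gene lists were chosen with earlier results of these data known. Named were the members, their relatives in other roles, up to 3 genes per list and direction, and the 3 genes nearest to CDH17 and CDHR2; some genes that this rule takes are not reported here. Alternatives were 3 other scalings, 2 pseudocounts, 2 filters, 2 thresholds, FPKM and unrounded counts.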

Additional observations from a re-analysis of the deposited data

How the results depend on the processing

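The count of members called higher was 8 with total-count scaling, DESeq2 size factors, library totals that omit the 50 highest genes, a pseudocount of 0.1 or 5, unrounded counts, no filter and a 1.5-fold threshold. It was 7 on the FPKM scale and with a 10 CPM filter, both without MYO7B, and 7 with a 4-fold threshold, without EPS8. None was called lower under any of these settings. Over all 14167 described genes, 1388 were higher and 1555 lower, also with unrounded counts and with no filter. With a pseudocount of 0.1 these were 1683 and 1916, and with a pseudocount of 5 they were 821 and 840. On the FPKM scale 1165 were higher and 1205 lower of 13419 described genes. With a 10 CPM filter 978 were higher and 921 lower of 10356. Total-count scaling gave 1329 and 1588, DESeq2 size factors 1374 and 1568, and totals that omit the 50 highest genes 1371 and 1652. With a 1.5-fold threshold 2755 were higher and 2677 lower, and with a 4-fold threshold 360 were higher and 504 lower. Fewer genes are left by the filter, and the thresholds change the counts by construction. The log2 difference of low genes moved most with the pseudocount and the FPKM scale, for ANKS4B between 3.03 and 7.79, for CDHR2 between 5.26 and 8.05 and for MYO7B between 0.94 and 4.41, while USH1C stayed between 0.21 and 0.24 and EPS8 between 1.88 and 1.96. No paired analysis was possible because each group holds 1 library, and leaving out a library leaves no comparison. With 5 counts of ANKS4B and 16 of MYO7B in the untreated library, depth limits how exact their ratios are.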

Other observations

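MYO1A and MYO7B led the unconventional myosins, a family taken by symbol after the data were seen. Of 25 myosin genes listed, 20 were described, with 4 higher and 3 lower in the refractory tumour and a median log2 of -0.04. Beside them, 9.80% of all described genes were higher and 11.0% lower. After MYO1A (log2 4.91) and MYO7B (2.62), the higher ones included MYO1E, a class I myosin of wide expression, at 209 CPM in the refractory and 72.0 CPM in the untreated tumour. MYO1G, a myosin of blood cells, stood at 0.101 CPM in the refractory and 5.82 CPM in the untreated tumour. MYO16 had 29 counts in the refractory and 306 counts in the untreated tumour, and MYO3B was the third lower one.

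MYO6 and MYO5B, motors of endocytosis and of recycling to the apical membrane, were not called. MYO6 and MYO5B were named after their values were seen. MYO6 stood at 210 CPM in the refractory and 331 CPM in the untreated tumour, and MYO5B at 111 CPM in the refractory and 104 CPM in the untreated tumour.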
